A study of Mus musculus with 47 samples.

Results

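Small nucleolar RNA (snoRNA) genes were followed across 4 brain regions and the 4 stages of the mouse estrous cycle. The members were all rows of the count tables whose Ensembl ID has the gene type snoRNA in GENCODE M21: 1469 of 37315 genes, of which 35449 had a gene type in that release and 1866 did not. Of the 1469 members, 660 had at least 1 count in some library and 809 had none. By name, 97 carried a Snord symbol, 40 a Snora symbol, 1316 only a Gm number, and 16 another symbol, among them the small Cajal body RNAs Scarna9 and Scarna10 and the rows Mir677 and Mir5117, which have microRNA symbols but the gene type snoRNA.

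The animals were adult female C57BL/6J mice, with no allele or treatment, killed by decapitation at 90 to 92 days of age in proestrus (all 91 days), estrus (all 90 days), metestrus (90 or 91 days) or diestrus (90 to 92 days). Whole hippocampus, whole hypothalamus, neocortex of both sides and cerebellum gave 12, 12, 11 and 12 libraries, 3 per stage and region except 2 for neocortex in estrus. The labels call the libraries biological replicates with RNA extracted per animal; they do not tie a library of one region to a library of another. The hippocampus libraries were made with other library protocols than those of hypothalamus, neocortex and cerebellum, which shared the NEBNext Ultra RNA kit. Library protocol and region therefore cannot be told apart in any comparison of hippocampus with another region, and in whole tissue fewer cells of a type and less RNA per cell cannot be told apart either.

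Library totals ranged from 7672217 to 15680876 counts in hippocampus, 1826368 to 8264980 in hypothalamus, 6311867 to 10535466 in neocortex and 2558644 to 7996961 in cerebellum. Of 9 marker genes per region, 9 were highest in their own region for hippocampus, hypothalamus and cerebellum, and 6 for neocortex. The 4 hypothalamus libraries Proestrus 2, Estrus 3, Metestrus 2 and Metestrus 3 stood apart: their microRNA genes summed to 30299.6, 53409, 29486 and 37157 CPM (counts divided by the library's total count and scaled to the usual CPM), against 4515 to 18397 CPM in the other 8. In hippocampus 6 libraries had summed snoRNA levels above 900 CPM and 6 below; results that rest on either set are given with and without it.

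Most snoRNAs are cut out of the introns of host genes and work in the nucleolus as guides. Box C/D snoRNAs direct the addition of methyl groups to ribosomal RNA and are usually short, while box H/ACA snoRNAs are longer and direct the change of uridine to pseudouridine. Mature snoRNAs have no poly(A) tail. In brain a large family of C/D copies lies in the introns of Snhg14, an imprinted transcript of the Prader-Willi locus that is expressed from the paternal chromosome, and another lies in the imprinted Meg3-Rian-Mirg region.

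The RNA sequences below are those of the members on which the region comparisons turn, written as DNA, 5′ to 3′, from GENCODE M21 transcripts (GRCm38). Capitals mark TGATGA starting in the first 15 bases together with CTGA in the last 12 bases (the C and D boxes), or an ACA followed by 3 bases at the 3′ end. Both were searched on the RNA's own strand only, and a member with both kinds was counted as C/D. No capitals means that neither the full C/D pair nor the ACA was found, so a single box may still be present. Snord57 below has CTGA in its last 12 bases but no TGATGA starting in its first 15. Of the 1469 members, 295 (20.1%) had the C/D letters, 258 (17.6%) had the ACA and 916 (62.4%) had neither. Among 4544 other small RNA transcripts the shares were 0.088% and 2.6%. The C/D letters were in 64 of 97 Snord members (66%) and in 0 of 40 Snora members, and the ACA in 33 of 40 Snora members (82.5%) and in 0 of 97 Snord members.

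The first set holds some of the members that were far higher in hippocampus: Snord49a and Snord49b (chr11:62603450-62603521 and chr11:62603079-62603150, plus strand, introns of the non-coding gene 2410006H16Rik), Gm22357 (chr1:161036057-161036139, plus strand, overlapping an annotated exon of the non-coding gene Gas5), AF357425 (chr12:109636012-109636084, plus strand, overlapping an exon of Rian), Snord83b (chr15:80078498-80078591, minus strand, an intron of Rpl3), Snord57 (chr2:130278016-130278087, plus strand, overlapping an exon of Nop56) and Gm25156 (chr7:59353283-59353361, minus strand, an intron of Snhg14).
Snord49a: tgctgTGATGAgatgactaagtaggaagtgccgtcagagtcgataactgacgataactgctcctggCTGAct
Snord49b: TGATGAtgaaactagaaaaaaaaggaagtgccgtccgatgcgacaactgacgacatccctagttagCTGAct
Gm22357: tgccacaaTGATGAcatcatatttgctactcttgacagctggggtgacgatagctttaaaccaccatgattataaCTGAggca
AF357425: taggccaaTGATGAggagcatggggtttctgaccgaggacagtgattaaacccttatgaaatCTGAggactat
Snord83b: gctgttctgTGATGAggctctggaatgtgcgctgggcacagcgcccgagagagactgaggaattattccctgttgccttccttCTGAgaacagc
Snord57: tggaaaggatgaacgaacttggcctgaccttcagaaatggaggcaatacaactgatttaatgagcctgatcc
Gm25156: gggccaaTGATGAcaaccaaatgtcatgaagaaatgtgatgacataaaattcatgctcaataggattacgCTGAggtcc

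The second set holds copies of the Snhg14 family that have from few to many identical copies in the genome annotation. All are 79 nt long on the minus strand: Gm26390 at chr7:59484948-59485026 is 1 of 3 identical copies, Gm26434 at chr7:59615744-59615822 is 1 of 33 and Gm24654 at chr7:59546487-59546565 is 1 of 23.
Gm26390: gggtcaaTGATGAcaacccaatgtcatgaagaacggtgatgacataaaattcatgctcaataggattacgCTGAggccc
Gm26434: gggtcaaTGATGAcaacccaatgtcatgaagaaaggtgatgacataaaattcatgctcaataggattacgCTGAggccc
Gm24654: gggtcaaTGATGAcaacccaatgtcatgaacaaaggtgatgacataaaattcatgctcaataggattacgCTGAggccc
Gm26434 differed from Gm26390 at 1 base and from Gm24654 at 1 base, and from the single-copy Gm25156 above at 4 bases.

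The third set holds a pair of H/ACA snoRNAs that were high in some hypothalamus libraries, Snora73a and Snora73b (chr4:132352775-132352979 and chr4:132352322-132352526, minus strand, introns of Rcc1, Snora73a also overlapping an exon of Snhg3), which differ at 7 bases, and a pair of C/D snoRNAs among the highest in neocortex and cerebellum, Snord14c and Snord14d (chr9:40803583-40803668 and chr9:40803995-40804080, plus strand, overlapping annotated exons of Hspa8), which differ at 2 bases.
Snora73a: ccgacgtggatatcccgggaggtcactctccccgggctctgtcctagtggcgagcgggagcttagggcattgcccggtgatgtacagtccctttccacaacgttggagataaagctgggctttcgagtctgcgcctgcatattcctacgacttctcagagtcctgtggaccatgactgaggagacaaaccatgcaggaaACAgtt
Snora73b: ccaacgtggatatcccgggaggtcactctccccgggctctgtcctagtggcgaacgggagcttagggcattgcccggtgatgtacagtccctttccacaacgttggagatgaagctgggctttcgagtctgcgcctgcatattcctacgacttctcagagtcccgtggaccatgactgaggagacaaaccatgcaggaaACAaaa
Snord14c: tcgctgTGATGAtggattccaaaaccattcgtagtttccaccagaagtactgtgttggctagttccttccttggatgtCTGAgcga
Snord14d: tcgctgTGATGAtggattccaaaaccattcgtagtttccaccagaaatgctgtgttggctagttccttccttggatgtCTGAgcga

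The summed snoRNA level was highest in hippocampus and varied most there. It averaged 848 ± 512 CPM in hippocampus, 280 ± 36.7 in hypothalamus, 198 ± 7.03 in neocortex and 220 ± 17.7 in cerebellum (SD, n = 12, 12, 11 and 12). In hippocampus the libraries held 1277, 341 and 934 CPM in proestrus, 498, 1200 and 533 in estrus, 1499, 393 and 375 in metestrus, and 1027, 301 and 1800 in diestrus. Every stage held libraries on both sides of 900 CPM, so the spread lay within stages. The lowest, median and highest levels were 238, 271 and 367 CPM in hypothalamus, 191, 196 and 215 CPM in neocortex, and 189, 218 and 257 CPM in cerebellum. The lowest hippocampus library, Diestrus 2, overlapped the hypothalamus range and lay above every neocortex and cerebellum library. Counts of mitochondrial ribosomal RNA genes moved with the hippocampus level. They held 13030 to 23130 CPM in the 6 libraries above 900 CPM and 5933 to 8576 CPM in the other 6. In the other regions they held 7567 to 64992 CPM. Small nuclear RNA genes moved likewise, at 55.0 to 117 and 14.9 to 37.4 CPM, beside 12.8 to 121 CPM in the other regions. Other ribosomal RNA genes held 34.9 to 95.6 and 20.6 to 49.3 CPM, beside 2.06 to 44.9 CPM in the other regions. The part of these genes in the result was not tested. Choroid plexus markers were also high in hippocampus: of 8 markers, 6 were called higher than in hypothalamus, 8 than in neocortex and 1 than in cerebellum (median log2 fold changes 4.66, 5.38 and 1.04). Their summed level was 163 to 3419 CPM in hippocampus, 56.9 to 134 in hypothalamus, 16.7 to 62.1 in neocortex and 25.3 to 2009 in cerebellum. Within hippocampus it was 1710 to 2971 CPM in the 6 libraries above 900 CPM of snoRNA genes and 163 to 3419 CPM in the other 6, so those sets overlapped. Of 8 oligodendrocyte markers 0 were called in each region contrast, by edgeR. The part of these cell types in the snoRNA levels was not tested.

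**Figure D1:**
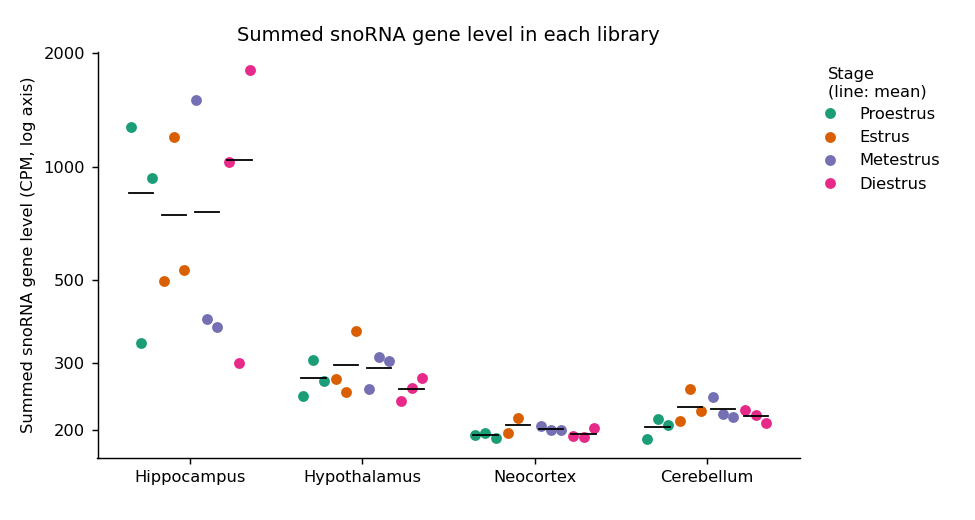
Summed level of the 1469 snoRNA genes in each of the 47 libraries (vertical axis, CPM), by region and stage; each point is a library. Hippocampus libraries spread over 301 to 1800 CPM, while the other 3 regions stay between 189 and 367 CPM. Every stage has hippocampus libraries on both sides of 900 CPM.

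Most of the snoRNA counts in hippocampus were in short C/D members. The 295 C/D members summed to 192 to 1458 CPM in hippocampus libraries, against 106 to 155 in hypothalamus, 81.7 to 95.3 in neocortex and 81.3 to 114 in cerebellum. The 258 ACA members summed to 40.3 to 103 CPM in hippocampus, 44.2 to 132 in hypothalamus, 35.7 to 46.7 in neocortex and 36.8 to 60.6 in cerebellum, so their ranges overlapped between hippocampus and each of the other regions. Within hippocampus the ACA sum was 60.1 to 103 CPM in the 6 libraries above 900 CPM and 40.3 to 46.6 in the other 6. The 6 high libraries thus lay above every neocortex library in the ACA sum, but overlapped hypothalamus and cerebellum. The 916 members with neither summed to 120 to 239 CPM in the 6 hippocampus libraries above 900 CPM and 67.1 to 83.3 in the other 6, against 79.4 to 104 in hypothalamus, 65.5 to 74.5 in neocortex and 69.2 to 85.3 in cerebellum. Those 6 high libraries thus lay above every library of the other regions in this class, as with the C/D members. Members of 100 nt or longer summed to 132 to 242 CPM in them and 96.6 to 108 in the other 6, against 106 to 293 in hypothalamus, 85.1 to 97.95 in neocortex and 93.2 to 149 in cerebellum. C/D members took 77.9% of the snoRNA counts in hippocampus, 43.0% in hypothalamus, 44.5% in neocortex and 45.7% in cerebellum. Members under 100 nt took 82.4% of the counts in hippocampus, 48.6% in hypothalamus, 54.1% in neocortex and 50.1% in cerebellum. In hypothalamus the library Estrus 3 had the lowest level of members under 100 nt, 73.9 CPM, and the highest level of longer members, 293 CPM.

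**Figure D2:**
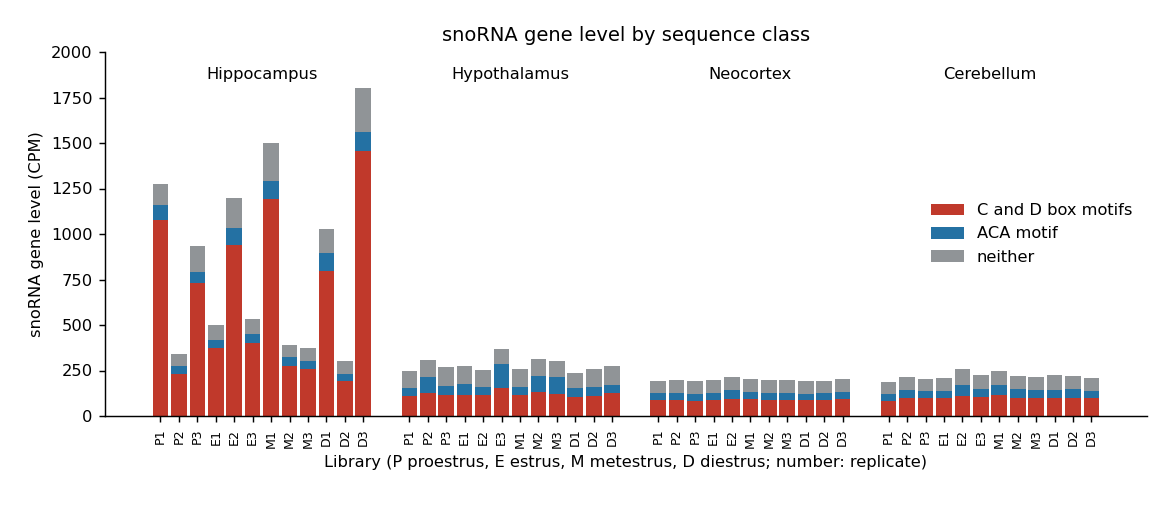
Summed level (CPM) in each of the 47 libraries of the snoRNA genes with the C/D letters, with the ACA, or with neither, stacked; each bar is a library, named by its stage and replicate. The C/D sum separates hippocampus (192 to 1458 CPM) from the other regions (81.3 to 155 CPM), while the ACA sums overlap. The ACA sums were 60.1 to 103 CPM in the 6 hippocampus libraries above 900 CPM and 40.3 to 46.6 in the other 6.

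Where the counts fell relative to host genes also differed. Members in a host intron held 62.3% of the counts in hippocampus, 32.8% in hypothalamus, 26.2% in neocortex and 29.1% in cerebellum. Members that overlap an exon of another gene, in which reads from the other transcript may be counted too, held 36.8%, 70.6%, 76.5% and 75.9% in the same regions. With only the members that overlap no such exon, the summed level averaged 536 ± 371 CPM in hippocampus (125 to 1200), 82.1 ± 9.19 in hypothalamus, 46.6 ± 3.40 in neocortex and 52.5 ± 4.81 in cerebellum. The highest level among the 35 other libraries was then 98.01 CPM, so no hippocampus library overlapped them.

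A few members dominated hippocampus. Snord55 alone took 13.8% of the hippocampus snoRNA counts, and Snord55, Snord49a, Gm22357 and Snord49b together took 32.7%. The leading member took 3.72% in hypothalamus (Gm26447), 5.18% in neocortex (Snord14c) and 4.45% in cerebellum (Gm26447). More members were also detected in hippocampus: 566 had a count in some hippocampus library, 495 in hypothalamus, 387 in neocortex and 379 in cerebellum, and 277 in all 4. Per library, 241 to 379 members were detected in hippocampus, 106 to 303 in hypothalamus, 163 to 224 in neocortex and 120 to 221 in cerebellum. At the depth of the shallowest library, 1826368 counts, the expected numbers were 137 to 238, 106 to 157, 97.2 to 111 and 103 to 122, and the hippocampus range lay above those of neocortex and cerebellum and overlapped that of hypothalamus.

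Hippocampus libraries were the deepest on average. Of the 660 detected members, 88 had counts only in hippocampus, 42 only in hypothalamus, 19 only in neocortex and 11 only in cerebellum. These numbers were taken at full depth, and the same numbers for all genes are not given here. They are therefore a description, and the part of depth in them was not tested. Among the 88, 22 had 10 or more counts, of which 18 had the C/D letters, 19 lay in a host intron and 15 of those 22 lay in Snhg14. Of all 660 detected members, 223 had the C/D letters, 351 lay in a host intron and 141 lay in Snhg14. Snord110, a C/D snoRNA in an intron of Nop56 (chr2:130275506-130275573, plus strand), led them with 464 counts and a mean of 3.58 ± 3.63 CPM (0 to 10.9, n = 12), at least 236-fold above the other 35 libraries pooled, taking a floor of 3 counts over them. At the floor of 3 counts the Snhg14 copies Gm25085, with 326 counts, and Gm24495 and Gm25120, with 305 each, were at least 166-fold, 155-fold and 155-fold higher. They ranged over 0 to 7.59, 0.130 to 8.11 and 0 to 7.70 CPM in hippocampus, and Gm25085 is 1 of 2 identical copies. These bounds cover counting error only. Snord110 and these copies were named because they had no count elsewhere, so the bounds restate their hippocampus counts and test nothing.

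Region contrasts were fitted over all genes with edgeR's test against a minimum log2 fold change of 1 (glmTreat), with Benjamini-Hochberg adjusted p under 0.05 counted as a call. The filter on low counts left 16529 genes and 65 of the 1469 members. A member can pass through the region where it is high, so counts over the 65 are a description. In hippocampus against hypothalamus 15 of the 65 were higher and 7 lower, where 7.8% and 6.23% of all genes tested were called. Against neocortex 22 were higher and 0 lower (5.2% and 2.35% of all genes). Against cerebellum 22 were higher and 2 lower (12.7% and 6.23% of all genes). Beside the 0 lower against neocortex, DESeq2 called 0 and the fit without a minimum fold called 15, where it called 32.6% of all genes. The median log2 fold change of the 65 was 0.15, 0.25 and 0.46 for hypothalamus, neocortex and cerebellum, beside 0.02, 0.00 and 0.02 for all genes tested.

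The same 15 members were higher in hippocampus than in each of the other 3 regions. They are Snord47, Snord49a, Snord49b, Snord55, Snord57, Snord66, Snord82, Snord83b, Snord104, AF357425, Gm22357, Gm23650, Gm25117, Gm25156 and Gm26330. Of these 15, 12 had the C/D letters and 13 were under 100 nt, as were 32 and 36 of the 65 tested. The 3 contrasts share the hippocampus libraries. Without the 6 hippocampus libraries above 900 CPM, 60 members passed the filter and 8, 10 and 11 were called higher, beside 1252, 747 and 2016 of 16648 genes. This setting was chosen after seeing the data, and those libraries were the highest in the measure itself. Gm25156, Gm23650, Snord66, Snord82 and Gm26330 were then not tested, Snord47 lost its call (adjusted p = 1 against hypothalamus) and so did Gm25117 (adjusted p = 0.497 against hypothalamus and 0.647 against neocortex). For 10 of the 65 members (15.4%, beside 3.84% of all genes tested) all 12 hippocampus libraries lay above the 35 others: Snord49a, Snord49b, Snord55, Snord57, Snord82, Snord83b, Snord104, AF357425, Gm22357 and Gm25156. Members such as Gm25156, with 1 count elsewhere, passed the filter through hippocampus, where they were high, so this share is a description.

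Snord55, which guides methylation of the large-subunit ribosomal RNA in human cells, was the highest member in hippocampus. Its hippocampus levels were 290, 39.2 and 101 CPM in proestrus, 74.7, 130 and 79.2 in estrus, 174, 44.6 and 45.0 in metestrus, and 159, 21.6 and 225 in diestrus. The other regions held at most 0.883 CPM in hypothalamus, 0.328 in neocortex and 0.392 in cerebellum. The groups did not overlap: the lowest hippocampus library was above the highest of the other 35. It averaged 115 ± 82.9 CPM in hippocampus, against 0.268 ± 0.307 in hypothalamus, 0.172 ± 0.118 in neocortex and 0.173 ± 0.153 in cerebellum. The log2 fold change was 8.74 ± 0.508 over hypothalamus (SE, as in all fold changes below; edgeR adjusted p = 1.65e-18), 9.22 ± 0.475 over neocortex (2.71e-20) and 9.19 ± 0.494 over cerebellum (2.77e-20). Per length it was also the highest of the tested members, at 1459 CPM per kb in hippocampus and 2.18 CPM per kb in neocortex.

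Snord49a and Snord49b, guides of the large-subunit ribosomal RNA in human cells, lie in neighbouring introns and differ at 26 bases. Snord49a held 160, 34.1 and 76.8 CPM in proestrus hippocampus, 70.0, 91.7 and 70.4 in estrus, 132, 53.3 and 41.6 in metestrus, and 82.01, 22.4 and 145 in diestrus. In the other regions it had 1 count in all of hypothalamus, at most 0.309 CPM in neocortex and at most 0.596 CPM in cerebellum. The lowest hippocampus library lay above every library of the other regions. The log2 fold change of Snord49a was 9.08 ± 0.394 against neocortex (adjusted p = 5.24e-23) and 9.25 ± 0.419 against cerebellum (4.17e-23). The ratio of pooled levels to hypothalamus was 4089, with an exact 95% interval of 734 to 161519 that covers counting error only. Snord49b averaged 30.1 ± 17.4 CPM in hippocampus (8.73 to 58.6) and at most 0.585 CPM in any library of the other regions, with log2 fold changes of 7.66 ± 0.459, 6.72 ± 0.358 and 7.19 ± 0.399 against hypothalamus, neocortex and cerebellum (adjusted p = 1.29e-17, 3.64e-19 and 2.89e-19).

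Gm22357 had counts in every library of every region. Its hippocampus levels were 53.4, 15.1 and 80.5 CPM in proestrus, 27.5, 62.4 and 28.4 in estrus, 76.0, 17.7 and 16.3 in metestrus, and 65.2, 11.9 and 109 in diestrus. It ranged over 1.77 to 4.74 CPM in hypothalamus, 1.71 to 3.49 in neocortex and 1.17 to 2.90 in cerebellum. The lowest hippocampus library was again above all others, with log2 fold changes of 3.77 ± 0.316, 4.15 ± 0.297 and 4.49 ± 0.32 over hypothalamus, neocortex and cerebellum (adjusted p = 3.37e-11, 1.42e-13 and 2.40e-14).

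AF357425, a C/D member of the imprinted Rian cluster, was also graded among the other 3 regions. Its lowest, median and highest levels were 5.43, 18.4 and 35.1 CPM in hippocampus, and it ranged over 0 to 1.56 CPM in hypothalamus and 0 to 0.331 CPM in neocortex, with 1 count in all of cerebellum. Hippocampus did not overlap the other regions, whereas the hypothalamus and neocortex ranges overlapped. The log2 fold change of hippocampus was 4.56 ± 0.338 over hypothalamus (adjusted p = 2.55e-13) and 7.17 ± 0.406 over neocortex (3.59e-18), and the ratio of pooled levels over cerebellum was 1244 (exact 95% interval 223 to 49167). Hypothalamus exceeded neocortex by 2.61 ± 0.811 on the log2 scale (adjusted p = 0.0478). Without the 4 hypothalamus libraries high in microRNA genes the adjusted p was 0.0569, while the hypothalamus mean was 0.923 CPM over the remaining 8 libraries and 0.733 CPM over all 12, so the difference was no smaller.

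Gm25156, a single-copy member in an Snhg14 intron, held 34.4, 2.25 and 17.8 CPM in proestrus hippocampus, 3.33, 27.0 and 4.72 in estrus, 39.7, 2.25 and 2.57 in metestrus, and 24.1, 1.43 and 41.6 in diestrus. The 6 libraries above 900 CPM in the summed level were its 6 highest. It had 1 count in all of hypothalamus and 0 in neocortex and cerebellum. Its pooled level in hippocampus was 800 times that in hypothalamus (exact 95% interval 143 to 31622), at least 504-fold higher than in neocortex and at least 347-fold higher than in cerebellum at the floor of 3 counts over each region.

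Snord83b averaged 17.0 ± 12.3 CPM in hippocampus (3.13 to 41.6), against 1.29 ± 0.195 in hypothalamus, 0.884 ± 0.178 in neocortex and 1.03 ± 0.222 in cerebellum. Its log2 fold changes of 3.77 ± 0.361, 4.17 ± 0.333 and 4.07 ± 0.345 over hypothalamus, neocortex and cerebellum had adjusted p of 1.83e-09, 6.83e-12 and 1.85e-11. Snord104 averaged 6.66 ± 3.88 CPM in hippocampus (2.22 to 14.2) and at most 1.18 CPM in any library elsewhere, and was 3.96 ± 0.369 log2 units above hypothalamus (adjusted p = 8.60e-10). Both snoRNAs kept all 12 hippocampus libraries above the 35 others. Snord57, a guide of the small-subunit ribosomal RNA in human cells, averaged 10.1 ± 8.92 CPM in hippocampus and 0.629 ± 0.382 in hypothalamus, a log2 fold change of 3.91 ± 0.476 (adjusted p = 3.94e-07). Its neighbour in Nop56, Gm23650, averaged 10.3 ± 10.2 CPM in hippocampus and 0.618 ± 0.368 in hypothalamus, a log2 fold change of 4.03 ± 0.535 (adjusted p = 1.85e-06). Snord47, in Gas5, had a wider spread, 14.1 ± 14.3 CPM in hippocampus (1.43 to 44.7) against 1.62 ± 0.521 in hypothalamus, and the ranges of the 2 regions overlapped despite a log2 fold change of 3.01 ± 0.447 (adjusted p = 5.78e-05).

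**Figure D3:**
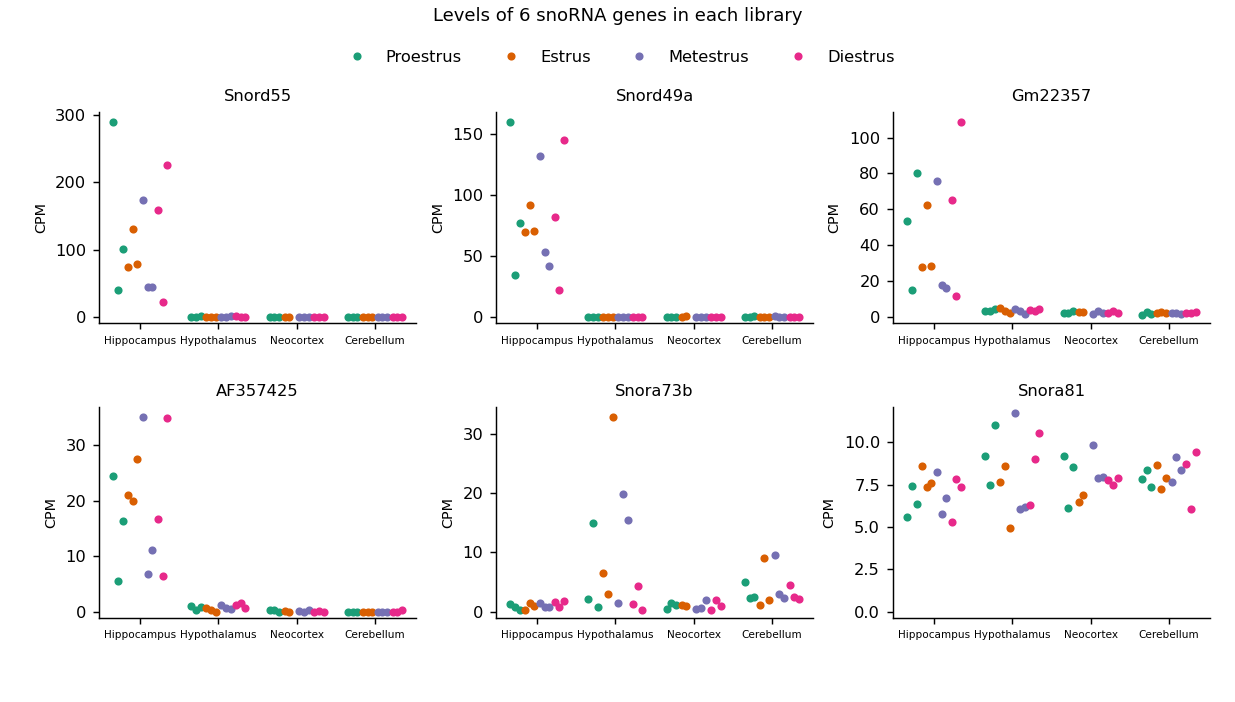
Level per library (CPM) of Snord55, Snord49a, Gm22357, AF357425, Snora73b and Snora81, by region and stage; each point is a library, coloured by stage. The first 4 lie above every other region in all hippocampus libraries, Snora73b is highest in 4 hypothalamus libraries (14.998 to 32.9 CPM), and Snora81 lies at 4.93 to 11.7 CPM throughout.

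The host genes of these members were called about as often as all genes. The 15 members higher in hippocampus lie in 10 host genes, of which 8 passed the filter; 0 of them were called higher in hippocampus than in hypothalamus, 0 than in neocortex and 1 than in cerebellum, beside 7.8%, 5.2% and 12.7% of all genes. The 1 was Gas5 (log2 fold change 1.67 ± 0.104, adjusted p = 2.00e-08). The median log2 fold change of the 8 hosts was 0.18, 0.22 and 0.35 against hypothalamus, neocortex and cerebellum. 2410006H16Rik, host of Snord49a and Snord49b, averaged 6.98 ± 0.936 CPM in hippocampus and 5.86 ± 1.82, 5.44 ± 0.422 and 5.61 ± 1.87 in hypothalamus, neocortex and cerebellum. Snord49a had 1175 counts per 100 counts of that host in hippocampus, more than the host itself, and 0.314, 2.33 and 2.12 in hypothalamus, neocortex and cerebellum. Gm22357 had 31.8 counts per 100 counts of Gas5 in hippocampus, and 4.04, 3.97 and 4.47 in the same 3 regions.

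Neighbours within 1 host showed unlike region patterns. In Gas5, where Gm22357 and Snord47 were higher in hippocampus, Snord80 averaged 0.747 ± 0.342 CPM in hippocampus, 0.728 ± 0.331 in hypothalamus, 0.612 ± 0.129 in neocortex and 0.511 ± 0.316 in cerebellum. Gm22489, also in Gas5, averaged 3.42 ± 0.499 CPM in hippocampus, 3.11 ± 0.940 in hypothalamus, 2.50 ± 0.356 in neocortex and 1.64 ± 0.322 in cerebellum, and was called in none of the 3 hippocampus contrasts (adjusted p = 1, 1 and 0.255). In Rian, Gm24895 averaged 10.03 ± 1.15 CPM in hippocampus, 9.38 ± 2.37 in hypothalamus, 7.77 ± 1.05 in neocortex and 7.59 ± 0.835 in cerebellum, and was called in no contrast. Snord65, which shares its host with Snord49a, averaged 0.442 ± 0.229 CPM in hippocampus and 0.213 ± 0.233, 0.281 ± 0.112 and 0.185 ± 0.134 in the other regions. Per length, the tested members of Gas5 stood at 565 (Gm22357), 183 (Snord47) and 55.2 (Gm22489) CPM per kb in hippocampus.

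The Snhg14 family was highest in part of the hippocampus libraries. Its 208 members span chr7:59342226-59923122 on the minus strand and have 85 distinct sequences; the row of Snhg14 itself was not analysed here. Their summed level ranged over 12.5 to 520 CPM in hippocampus, against 9.16 to 15.3 in hypothalamus, 0.601 to 2.21 in neocortex and 0.388 to 3.76 in cerebellum. The hippocampus range overlapped that of hypothalamus and lay above those of neocortex and cerebellum, and hypothalamus lay above neocortex and cerebellum in every library. Within hippocampus the sum was 194 to 520 CPM in the 6 libraries above 900 CPM and 12.5 to 53.4 CPM in the other 6. The family held 20.9% of the snoRNA counts in hippocampus (4.16% to 29.1% per library), 4.52% in hypothalamus, 0.705% in neocortex and 0.849% in cerebellum. The 130 members of 79 nt, at chr7:59344073-59619095, summed to a mean of 112 CPM in hippocampus, and the 68 members of 94 nt, at chr7:59673461-59904848, to 65.3 CPM. Snord116l4 and Snord116l12 are among the 94-nt members.

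Members with many identical copies held almost no counts. The 122 members with up to 6 identical copies, of 82 sequences, held 23767 hippocampus counts, and 109 of them had at least 1. The 86 members with 23 or more copies, of 3 sequences, held 11 counts in hippocampus, 62 in hypothalamus, 5 in neocortex and 2 in cerebellum. Gm26390 and its identical copies Gm22510 and Gm26336 had 997, 998 and 998 hippocampus counts, while Gm26434, which differs from Gm26390 at 1 base, and Gm24654 had 0 counts in every library. Another identical trio, Gm25157, Gm22258 and Gm22941, had 798, 796 and 793 hippocampus counts. With the counting step not given in the sources used here, counts of identical copies cannot be assigned to 1 locus. With 1 copy kept per distinct sequence the family summed to 7.93 to 299 CPM in hippocampus. Single-copy members, which have no such copies, reached 16.8 ± 15.95 CPM for Gm25156 and 8.55 ± 8.39 CPM for Gm23767 in hippocampus.

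**Figure D4:**
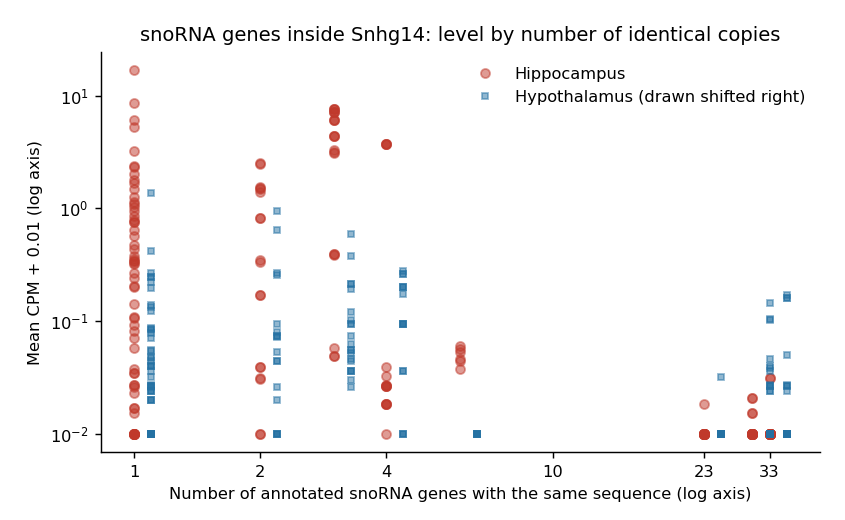
Mean level in hippocampus and hypothalamus (mean CPM + 0.01, log axis) of each of the 208 Snhg14-hosted snoRNA genes against the number of snoRNA genes with the same sequence (log axis); each point is a gene. In hippocampus members with up to 6 copies reach 16.8 CPM, and the 86 members with 23, 30 or 33 copies lie at or below 0.0216 CPM.

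In all, 8 members were lower in at least 1 contrast, of which 6 are 100 nt or longer, as are 29 of the 65 tested (44.6%): Snora73a, Snora73b, Scarna10, Gm23262, Gm25187 and Gm26448, with the short Gm23474 and Mir677. Snora73a and Snora73b, which act in cleavage of the precursor of small-subunit ribosomal RNA and do not serve as pseudouridine guides, differed from hypothalamus. Snora73b averaged 1.04 ± 0.475 CPM in hippocampus, against 8.57 ± 10.2 in hypothalamus, 1.05 ± 0.596 in neocortex and 3.82 ± 2.77 in cerebellum. In hypothalamus it held 14.998, 32.9, 19.8 and 15.4 CPM in Proestrus 2, Estrus 3, Metestrus 2 and Metestrus 3, the 4 libraries high in microRNA genes, and 0.199 to 6.56 CPM in the other 8. The log2 fold change of hippocampus over hypothalamus was −2.86 ± 0.512 for Snora73b (adjusted p = 0.000561) and −2.83 ± 0.501 for Snora73a (0.000528). Snhg3, of which Snora73a overlaps an exon, averaged 2.87 ± 0.600 CPM in hippocampus and 8.40 ± 5.29 in hypothalamus (2.58 to 19.7). It averaged 3.88 ± 0.662 CPM in neocortex and 6.55 ± 1.62 in cerebellum. The part of reads from Snhg3 in the Snora73a counts was not tested. Scarna10, a Cajal body RNA, averaged 1.33 ± 0.962 CPM in hippocampus and 9.36 ± 13.5 CPM in hypothalamus, with 11.2, 47.6, 19.4 and 12.8 CPM in the same 4 libraries (log2 fold change −2.59 ± 0.52, adjusted p = 0.003).

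These calls rested on the 4 hypothalamus libraries. Without them, a setting chosen after seeing the data, 90 members passed the filter and 2 were lower in hippocampus than in hypothalamus; Snora73a, Snora73b, Scarna10 and Gm23262 had adjusted p of 1 and Gm26448 of 0.525. The log2 fold change of Snora73b was then −0.95. In the same fit 41 of the 90 members were called higher in hippocampus. Of all 16898 genes tested there, 1355 were higher and 1058 lower. The 41 were 26 more members called higher than with all libraries, and 17 of the 22 calls were shared. The 2 that stayed lower were Gm23474 and Gm25187. Gm23474, in Rian, averaged 0.602 ± 0.251 CPM in hippocampus, against 2.03 ± 0.905 in hypothalamus, 0.888 ± 0.410 in neocortex and 0.385 ± 0.181 in cerebellum (log2 fold change −1.78 ± 0.227 against hypothalamus, adjusted p = 0.000776). Gm25187, overlapping an exon of Snhg11, averaged 0.862 ± 0.341 CPM in hippocampus and 2.53 ± 0.962 CPM in hypothalamus (−1.48 ± 0.205, adjusted p = 0.0179). Snhg11 itself had a log2 fold change of −1.39 in that contrast. Gm25187 had 0.0716 counts per 100 counts of Snhg11 in hippocampus and 0.0735 in hypothalamus, so its counts cannot be told apart from host reads. Gm23474 overlaps an exon of Rian too. Mir677, in an intron of Atp5b, averaged 2.39 ± 0.360 CPM in hippocampus and 6.19 ± 1.05 CPM in cerebellum, where the ranges did not overlap (−1.31 ± 0.0904, adjusted p = 0.00128).

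Other abundant members were called in no region contrast. Snora81, an H/ACA guide of the large-subunit ribosomal RNA in human cells that lies in Eif4a2, averaged 7.01 ± 1.08 CPM in hippocampus, 8.23 ± 2.16 in hypothalamus, 7.83 ± 1.11 in neocortex and 8.05 ± 0.921 in cerebellum. Gm26447, in the same gene, averaged 9.40 CPM in hippocampus and 10.2, 9.48 and 9.94 CPM in hypothalamus, neocortex and cerebellum. Snora81 differed from hypothalamus by −0.24 ± 0.0952 and from neocortex by −0.24 ± 0.088 on the log2 scale (adjusted p = 1 each). Snord14c averaged 11.5 CPM in hippocampus and 8.32, 10.3 and 9.39 CPM in hypothalamus, neocortex and cerebellum, and its near-identical neighbour Snord14d averaged 17.4 CPM in hippocampus and 8.55, 9.86 and 9.06 CPM in those 3 regions, with adjusted p from 0.924 to 1 in the hippocampus contrasts. Members overlapping exons of highly expressed hosts may hold host reads, as above; Snora81, Gm26447, Snord14c and Snord14d all do overlap such exons. Gm24201, also in Eif4a2, was the 1 member of the 65 whose hippocampus libraries all lay below the others (0.43% of all genes tested did), at 1.91 to 4.31 CPM against 4.38 to 8.75 CPM, without passing the minimum fold.

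Some widely studied members were near 0 or uneven. Snord118, needed for maturation of large-subunit ribosomal RNA, held at most 0.203 CPM in any hippocampus library and had 0 counts elsewhere. Snord13, which guides acetylation of small-subunit ribosomal RNA, held 0.0917 to 4.82 CPM in hippocampus and 0 elsewhere except in 1 cerebellum library at 0.145 CPM. Snord17 ranged over 0 to 10.2 CPM in hypothalamus. Snord118 and Snord13 did not pass the filter of the region fit, and Snord17 was called in no contrast.

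Hypothalamus, neocortex and cerebellum shared a library kit. Hypothalamus against neocortex had 10 of the 65 members higher and 0 lower (9.2% and 6.94% of all genes), and hypothalamus against cerebellum had 7 higher and 0 lower (12% and 6.5% of all genes). Neocortex against cerebellum had 0 higher and 3 lower (10.2% and 6.9% of all genes). Beside the counts of 0, DESeq2 called 0 in each, and the edgeR fit without a minimum fold called 6, 4 and 9, where it called 38.4%, 38% and 35.7% of all genes. Snora73a, Snora73b, Gm23442, Gm24339, Scarna9, Gm26397, Snord15b, Gm22988, Gm23262 and AF357425 were higher in hypothalamus than in neocortex. Without the 4 hypothalamus libraries high in microRNA genes 3 of 90 were, beside 1527 of 16898 genes. Of these 3 members 2, Gm24339 and Scarna9, were among the 10. Leaving out single libraries gave 5 without Metestrus 2 and 6 without Proestrus 2 or without Estrus 3 of hypothalamus.

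Gm24339 and Scarna9, both with the C/D letters and both in introns of Cep295, were low in neocortex. Gm24339 averaged 2.65 ± 0.630 CPM in hippocampus, 3.02 ± 1.45 in hypothalamus, 0.520 ± 0.157 in neocortex and 2.14 ± 0.488 in cerebellum. Its highest neocortex library, 0.726 CPM, lay below the lowest of every other region. Hippocampus exceeded neocortex by 2.21 ± 0.233 on the log2 scale (adjusted p = 1.11e-05), hypothalamus exceeded it by 2.29 ± 0.262 (9.05e-06), and neocortex minus cerebellum was −1.83 ± 0.262 (0.0018). Scarna9 averaged 1.63 ± 0.440 CPM in hippocampus, 2.23 ± 1.32 in hypothalamus, 0.447 ± 0.229 in neocortex and 1.71 ± 0.587 in cerebellum, and neocortex minus cerebellum was −1.77 ± 0.301 (adjusted p = 0.00928). Their host averaged 24.4 ± 3.77 CPM in hippocampus, 31.1 ± 7.19 in hypothalamus, 22.9 ± 1.66 in neocortex and 31.1 ± 3.81 in cerebellum. The third member lower in neocortex than in cerebellum was Gm23262, in Eif4g2 (−2.18 ± 0.557, adjusted p = 0.0317). Its cerebellum counts were uneven, with 73 in Estrus 2, 38 in Metestrus 1 and 3 to 15 in each of the other libraries.

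Against cerebellum, hypothalamus was higher in Gm23474, by 2.47 ± 0.283 on the log2 scale (adjusted p = 3.32e-06), Gm23600, Gm25187, Gm25129, Gm23442, Gm26397 and AF357425. Gm23474, Gm23600 and AF357425 lie in Rian, and Gm25187 and Gm25129 in Snhg11. Meg3, of the same imprinted transcription unit as Rian, averaged 9813 ± 1740 CPM in hypothalamus and 2400 ± 375 CPM in cerebellum (log2 fold change 2.103 ± 0.077, adjusted p = 1.54e-19). Snhg11 averaged 3271 ± 634 CPM in hypothalamus and 1133 ± 137 CPM in cerebellum (1.60 ± 0.0657, adjusted p = 1.72e-12). Gm23442 and Gm26397 lost their calls without the 4 hypothalamus libraries, with adjusted p of 1, and already without Estrus 3 alone, at 0.0630 and 0.0670.

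No member passed the test between stages of the cycle in any region. The stage test compared the 4 stages within a region (edgeR quasi-likelihood F-test) over 150 members in hippocampus, 40 in hypothalamus, 47 in neocortex and 36 in cerebellum that passed the filter there, and called 0 in each; edgeR also called 0 of all genes (0%). At an unadjusted p under 0.05 there were 2 of 150 members in hippocampus (1.33%, beside 1.47% of all genes), 1 of 40 in hypothalamus (2.5%, beside 1.54%), 0 of 47 in neocortex (0%, beside 5.61%) and 0 of 36 in cerebellum (0%, beside 1.72%). The 6 pairwise stage contrasts called 0 members in each region, with unadjusted p under 0.05 in 18 of 900 results in hippocampus (2%, beside 1.99% of all genes), 12 of 240 in hypothalamus (5%, beside 2.44%), 3 of 282 in neocortex (1.06%, beside 5.71%) and 1 of 216 in cerebellum (0.463%, beside 2.32%). DESeq2 called 0 members in every stage test and contrast.

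The spread between libraries of a stage bounds what these tests could show. The median SD of log2 CPM between libraries of the tested members was 1.35 in hippocampus, 0.42 in hypothalamus, 0.22 in neocortex and 0.28 in cerebellum, beside 0.21, 0.34, 0.15 and 0.18 for the other genes tested. In hippocampus the members tended to be high together: of the 150 tested, 82 were highest in the library Diestrus 3, 20 in Diestrus 1, 19 in Metestrus 1 and 9 in Proestrus 1. The median log2 fold change of diestrus was 0.39 over proestrus, 0.63 over estrus and 0.55 over metestrus, with 134, 138 and 140 of the 150 positive, while the all-gene medians were −0.01, 0.01 and −0.00. These medians share the same 3 diestrus libraries, which held 1027, 301 and 1800 CPM in the summed level.

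The smallest stage p in hippocampus belonged to Snora68, an H/ACA guide of the large-subunit ribosomal RNA in human cells that overlaps an exon of another gene. It held 4.99, 3.93 and 3.28 CPM in proestrus, 2.68, 3.20 and 2.81 in estrus, 3.93, 3.41 and 3.21 in metestrus, and 7.60, 4.30 and 4.99 in diestrus. The diestrus and proestrus libraries overlapped, and the stage test gave an unadjusted p of 0.00802 and an adjusted p of 0.999978. Mir5117 followed, at 1.08 ± 0.504, 1.55 ± 0.343, 1.47 ± 0.985 and 3.66 ± 1.99 CPM in proestrus, estrus, metestrus and diestrus (SD, n = 3 each). Its unadjusted p in the edgeR stage test across all genes was 0.0174. In hypothalamus Scarna10 had the smallest p, 0.0314, with 0.979, 11.2 and 0.968 CPM in proestrus, 2.92, 9.12 and 47.6 in estrus, 1.53, 19.4 and 12.8 in metestrus and 1.70, 3.43 and 0.597 in diestrus. Its 4 highest libraries were those high in microRNA genes. With no filter on low counts the hypothalamus stage test called 6 members, Scarna10, Snora73a, Snora73b, Snord22, Snord15b and Gm23262, and the pairwise contrasts called 10 results; in the same fit 115 of 24237 genes (0.474%) and 221 pairwise results (0.152%) were called, and none of the 4 libraries is in diestrus.

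Genes of the snoRNA machinery were set beside the members in the region tests, in which 2.35% to 12.7% of all genes were called per direction and contrast; in lists this short, few calls would be made at that share. The 4 core proteins of the C/D particle were called in 0 region contrasts, and so were the 14 of 15 assembly factors and the 16 of 20 processing factors that were tested. Of the 4 core proteins of the H/ACA particle, Nhp2 averaged 18.2 ± 2.14 CPM in hippocampus and 6.58 ± 2.03 in hypothalamus (log2 fold change 1.43 ± 0.0884, adjusted p = 1.24e-05), and hypothalamus minus neocortex was −1.59 ± 0.0901 (4.47e-08). Of 22 non-coding host genes 11 were in the tables and 10 were tested in the region contrasts: Snhg11 was lower in hippocampus than in hypothalamus (−1.39 ± 0.0653, adjusted p = 1.50e-07), Gas5 higher in hippocampus than in cerebellum, Meg3 and Snhg11 higher in hypothalamus than in cerebellum, and Meg3 higher in neocortex than in cerebellum (1.15 ± 0.0764, adjusted p = 0.0358). The stage tests called 0 genes of these lists in every region.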

How the data were processed

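RNA was sequenced from 4 brain regions at 4 estrous stages, in 47 libraries. The submitters' processing notes name the genome build GRCm38 (mm10) and the tools Cufflinks 2.1.1, DESeq 1.12.1, TopHat2 2.0.8, Trimmomatic 0.32 and SAMtools, without their roles. The deposited values are whole-number counts per gene, not normalized. How reads were assigned to genes is a step not given in the sources used here, so reads of identical copies or overlapping genes cannot be resolved. Gene types, hosts and sequences came from GENCODE M21, matched by Ensembl ID; the 1866 unmatched genes stayed in the library totals, which ranged from 1826368 to 15680876 counts. CPM was computed from those totals. Gene symbols are GENCODE's.

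Tests used edgeR 4.0.16 in R 4.3.3 on the counts, with TMM factors, filterByExpr (minimum count 10, minimum total 15) and Benjamini-Hochberg adjustment over all genes tested, threshold 0.05. Stages were compared within a region with a quasi-likelihood F-test and 6 pairwise contrasts. Regions were compared in 1 fit over all libraries with stage as a covariate, by glmTreat against a log2 fold change of 1. Standard errors are the log2 fold change divided by the root of its F statistic. Ratios of pooled counts have exact 95% intervals, and a region at 0 was set at a floor of 3 counts; both cover counting error only. Both fits were tested on simulated data. Alternatives were RLE factors, library totals, other filters, DESeq2 1.42.0, age, a replicate block, no minimum fold, and leaving out libraries.

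The members, lists and named genes were chosen with earlier results of these data known. Named were the members with the smallest stage p, the highest levels and the largest called fold changes per contrast, plus a short set of well-known snoRNAs; neighbours within a host, members seen in 1 region alone and Snhg14 copies were named after their values were seen. Of 46 replicate pairs compared within groups, 0 held identical counts. Some host genes and 1 member's sequence and position are not reported here.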

Additional observations from a re-analysis of the deposited data

How the results depend on the processing

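Counts of members called moved with the filter on low counts and with the minimum fold. With no filter, over 660 members, hippocampus had 109 higher and 34 lower against hypothalamus, 145 and 1 against neocortex, and 150 and 7 against cerebellum; hypothalamus had 37 higher than neocortex and 35 higher than cerebellum; neocortex against cerebellum had 3 higher and 8 lower; and the hypothalamus stage test called 6 members and its pairwise contrasts 10. Of all genes 1.94% to 13.3% were then called per direction in the region contrasts. With a mean of at least 1 CPM the hippocampus contrasts had 37, 45 and 45 of 88 members higher, beside 1194, 788 and 1960 of 16313 genes. With no minimum fold hippocampus had 26 higher and 22 lower against hypothalamus, 29 and 15 against neocortex, and 32 and 17 against cerebellum. Hypothalamus had 20 higher and 6 lower against neocortex and 17 higher and 4 lower against cerebellum. Neocortex against cerebellum had 9 higher and 8 lower. Of all genes 38.5% were then higher and 36.5% lower in hippocampus than in hypothalamus, beside 40% and 33.8% of the 65 members. Against neocortex 44.6% of the members were higher and 23.1% lower, beside 32.8% and 32.6% of all genes. Against cerebellum 49.2% were higher and 26.2% lower, beside 40.2% and 37.1% of all genes. In the contrasts without hippocampus 35.7% to 38.4% of all genes were called in each direction. Of the 65 tested members, 24 overlap no exon of another gene. Of these 24, the hippocampus contrasts called 8 higher and 1 lower, 11 and 0, and 10 and 0. The shares of all genes were 7.8% and 6.23%, 5.2% and 2.35%, and 12.7% and 6.23%. Hypothalamus had 4 of the 24 higher than neocortex and 4 higher than cerebellum, beside 9.2% and 12% of all genes. The summed level of all members without such an exon averaged 82.1 CPM in hypothalamus, 46.6 in neocortex and 52.5 in cerebellum, since this leaves out members. With TMM-scaled totals the neocortex sum averaged 210.4 CPM, against 198 with plain totals. The settings on the summed level, and those that leave out 4 or 6 libraries, were chosen after seeing the data.

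Without the 6 hippocampus libraries above 900 CPM the hippocampus contrasts had 8, 10 and 11 of 60 members higher and, against cerebellum, 4 lower. Of 16648 genes 1252, 747 and 2016 were then higher, and 1028 lower against cerebellum. Without the 4 hypothalamus libraries above 20000 CPM of microRNA genes there were 41 of 90 members higher and 2 lower in hippocampus against hypothalamus. There were 3 higher in hypothalamus against neocortex. Of 16898 genes 1355, 1058 and 1527 were called in the same order. The cause of these changes was not tested. Against cerebellum, the 2 members lower in hippocampus became 1 with RLE factors, 1 with the replicate block and 0 with DESeq2, and the 3 lower in neocortex became 1 with DESeq2. With library totals alone the all-gene median of neocortex minus cerebellum was −0.18 and that of hypothalamus minus neocortex 0.11, and all genes higher and lower were 1415 and 1378 in place of 1688 and 1141, and 1757 and 929 in place of 1520 and 1147; all member counts stayed within 1.5 times.

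Leaving out each library in turn gave 13 to 19 higher and 5 to 7 lower for hippocampus minus hypothalamus, 20 to 26 and 0 for hippocampus minus neocortex, 19 to 26 and 1 to 3 for hippocampus minus cerebellum, 5 to 11 and 0 to 1 for hypothalamus minus neocortex, 5 to 7 and 0 for hypothalamus minus cerebellum, and 0 to 1 and 2 to 3 for neocortex minus cerebellum; the stage counts stayed at 0. The single call lower in hypothalamus than in neocortex came without neocortex Diestrus 1, and the 1 higher in neocortex than in cerebellum without cerebellum Estrus 2. In hippocampus minus cerebellum Gm23262 lost its call, leaving 1, without any of hippocampus Proestrus 2, Estrus 1, Estrus 2, Estrus 3, Metestrus 2, Metestrus 3 or Diestrus 2, or cerebellum Proestrus 1, Proestrus 3, Estrus 2, Metestrus 1 or Diestrus 1. Whether the replicate numbers pair libraries could not be told. Deviations of same-numbered libraries of a region correlated above 0.1 in 6 of 18 pairs in hippocampus and 2 of 18 in hypothalamus. The counts were 2 of 15 in neocortex and 5 of 18 in cerebellum. Between regions, libraries of the same stage and number correlated above 0.1 in 15 of 69 pairs (−0.185 to 0.271, median 0.0483). For cerebellum and neocortex the 11 pairs ran from 0.00619 to 0.198. The main region fit took the libraries as unpaired. With the replicate block the counts were 15 and 6, 22 and 0, and 22 and 1 in the hippocampus contrasts, 7 and 0 for hypothalamus minus neocortex, 7 and 0 for hypothalamus minus cerebellum, and 0 and 2 for neocortex minus cerebellum, with 0 in every stage test. Of the settings for single named members in the hippocampus contrasts, 5667 kept their side of the threshold, 43 lost it, 49 gained it and 0 reversed; Gm25156 against neocortex and against cerebellum, both at 0 counts, had no finite fold change and was left out. Depth limits the 1404 members that did not pass the filter of the region fit.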
